A study of Arabidopsis thaliana with 4 samples.

Results

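Plastid-encoded transcripts were taken as every row of the deposited expression files whose gene ID begins with ATCG, the prefix of genes on the chloroplast genome. There were 133 such rows among 33602 gene IDs. The libraries were RNA sequencing libraries of whole seedlings of Arabidopsis thaliana, 2 of the wild type Col-0 and 2 of the mutant lux-6. LUX is a transcription factor of the evening complex, the part of the plant circadian clock that represses its targets around dusk. All plants were 10 days old, grown in long days at 22 °C on MS medium with 3% sucrose and harvested at zeitgeber time 12, and the series calls the libraries of a genotype biological replicates. The labels give no second allele of LUX and no complemented line, so lux-6 stands for a single mutant allele.

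The chloroplast genome encodes core subunits of the photosystems, of the cytochrome b6f complex, of ATP synthase and of the NDH complex, the large subunit of Rubisco, part of the plastid ribosome, and the core of a bacterial-type RNA polymerase. Its genes are mostly transcribed as long precursors that hold several genes and are then cut and trimmed by nuclear-encoded proteins. Plastid messenger RNAs carry no stable poly(A) tail, unlike nuclear ones, and adenine-rich tails mark plastid RNA for decay. The labels' protocols do not say how messenger RNA was separated from ribosomal RNA.

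Values are FPKM, fragments scaled by the length of the gene and the total of the library. The deposited IDs carry no gene names. RefSeq lists plastid genes under other tags, so the length that each FPKM value implied was matched to RefSeq plastid genes. Length alone named 58 rows, all 58 of them in the order of the plastid genome, and length with position between these named a further 25. RefSeq notes mention 6 of the IDs, of which 4 carry the same name there as by length, ATCG01310 was at 0, and ATCG00430, ndhK by its length, is called a photosystem II protein. Another 10 rows above 0 had no match and are given by ID, and 40 rows were listed at 0 in every library. Of the 93 rows above 0, 83 averaged 1 FPKM or more across the 4 libraries and only these were given fold changes. Of these 83, 68 have a protein name. For 19 of the 83 it was Col-0 replicate 2 alone that brought the mean up to this level, and 64 reached it in the other 3 libraries as well.

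LUX itself measured 57 and 73.9 FPKM in the Col-0 libraries against 34.8 and 35.3 FPKM in those of lux-6. The libraries held between 10735709 and 11198704 fragments, worked back from the FPKM values. The marker genes of leaf mesophyll, such as the small Rubisco subunit RBCS1A and the carbonic anhydrase CA1, summed to 13300 FPKM in Col-0 replicate 1, 25500 FPKM in Col-0 replicate 2, 11500 FPKM in lux-6 replicate 1 and 11200 FPKM in lux-6 replicate 2, and none of the 4 was at 0 in any library. RBCS1A and CA1 carried these sums. The other 2 markers, the light-harvesting genes LHCB1.2 and LHCB2.1, had 358, 364, 728 and 560 FPKM and 48.1, 14.7, 111 and 74.2 FPKM in the same order, so that LHCB2.1 was lowest in Col-0 replicate 2 and neither was highest there. Root markers summed to 37.9, 22.0, 23.6 and 28.8 FPKM in the same order. The part of leaf content in the plastid values was not tested.

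In plastid transcripts Col-0 replicate 2 departed from the remaining 3 libraries, and results are therefore given with and without it. Plastid rows made up 0.0525% of the summed FPKM in Col-0 replicate 1, 3.09% in Col-0 replicate 2, 0.0698% in lux-6 replicate 1 and 0.0530% in lux-6 replicate 2. The share of Col-0 replicate 2 was 52.9 times the mean of the other 3, which lay close together. In fragments, the plastid rows held 1687, 170060, 2922 and 1585, or 0.0153% (95% Wilson interval 0.0146 to 0.0161), 1.52% (1.51 to 1.53), 0.0266% (0.0257 to 0.0276) and 0.0148% (0.0141 to 0.0155). These intervals cover counting error only. Between the genotypes the share was 1.57% ± 2.15 (SD, n = 2) in Col-0 and 0.0614% ± 0.0119 (SD, n = 2) in lux-6, and a two-sided exact permutation test gave p = 1, where the smallest p that 2 against 2 libraries allow is 0.333. Without Col-0 replicate 2 the Col-0 share was 0.0525%, under the lux-6 mean of 0.0614%, so the sign of the difference rests on that library. In such bulk samples a different number of plastid-rich cells and a different amount of plastid RNA per cell cannot be told apart. Col-0 replicate 2 also stood apart outside the plastid rows. Nuclear long noncoding RNA rows took 0.00129% of its FPKM, against 0.0620% to 0.0661% in the other libraries. What sets this library apart was not tested.

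**Figure D1:**
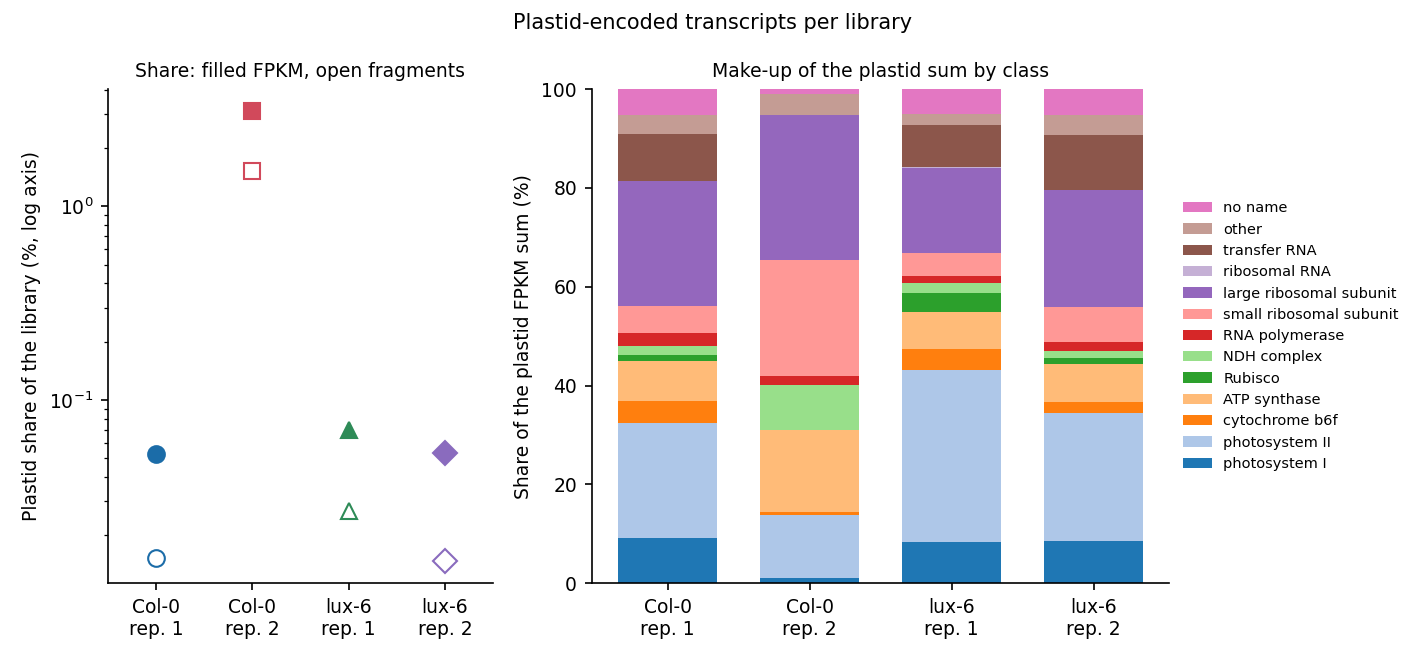
Left, the plastid share of each library in percent on a log axis, with filled symbols for summed FPKM and open symbols for fragments. Right, the share of each class of genes in the plastid FPKM sum in percent, 1 bar for each library: Col-0 replicate 2 lies at 3.09% where the others lie between 0.0525% and 0.0698%, and ribosomal protein and ATP synthase genes take more of its sum than of the others'.

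In the 3 libraries of low share, a few genes, many of them short, carried much of the plastid FPKM sum. The 10 highest members held 53.0%, 52.9% and 52.5% of it in Col-0 replicate 1, lux-6 replicate 1 and lux-6 replicate 2, and 70.9% in Col-0 replicate 2. The most abundant was rpl32 (ATCG01020), a protein of the large ribosomal subunit, in Col-0 replicate 1 at 45.1 FPKM and in lux-6 replicate 2 at 42.8 FPKM. In lux-6 replicate 1 it stood at 41.3 FPKM, second to psbA (ATCG00020), the D1 protein of the photosystem II reaction centre. In Col-0 replicate 2 the leading member was atpE (ATCG00470), the epsilon subunit of ATP synthase, with 11% of the plastid sum. The psaJ gene (ATCG00630), a small subunit of photosystem I, followed rpl32 in Col-0 replicate 1, at 29.6 FPKM against 207 FPKM in Col-0 replicate 2, 30.4 FPKM in lux-6 replicate 1 and 23.5 FPKM in lux-6 replicate 2. FPKM divides by gene length, and in fragments rpl32 had 79 in Col-0 replicate 1, against 162 for the longer psbA.

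Over the 83 members, log2(FPKM + 1) correlated between Col-0 replicate 1, lux-6 replicate 1 and lux-6 replicate 2 with Pearson's r between 0.840 and 0.898, and between Col-0 replicate 2 and each of these with r between 0.154 and 0.282. These are descriptions across genes that share libraries, and genes are not independent replicates. Of the 10 highest members, Col-0 replicate 1 shared 9 with lux-6 replicate 2 and 4 with Col-0 replicate 2. Col-0 replicate 2 thus differed in the order of the genes as well as in their sum.

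The sequences below are the 40 bases richest in adenine within the coding sequences of 6 members with a large excess in Col-0 replicate 2 (ycf1, rps19, rps3, atpE, ndhK and psbD), of atpF, which had almost none, and of psbA and rbcL, which lay within the range of the other libraries there. They are shown because the excess varied, loosely, with the percentage of adenine in the whole coding sequence. They are read 5′ to 3′ on the coding strand from the plastid genome of RefSeq TAIR10.1, with A in capitals.
ycf1: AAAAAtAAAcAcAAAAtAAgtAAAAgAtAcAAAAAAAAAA
rps19: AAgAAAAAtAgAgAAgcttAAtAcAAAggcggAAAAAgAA
rps3: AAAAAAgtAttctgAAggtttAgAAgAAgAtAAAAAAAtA
atpE: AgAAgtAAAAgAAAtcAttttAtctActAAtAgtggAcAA
ndhK: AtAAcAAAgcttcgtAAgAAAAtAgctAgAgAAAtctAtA
psbD: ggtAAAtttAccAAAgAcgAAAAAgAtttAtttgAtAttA
atpF: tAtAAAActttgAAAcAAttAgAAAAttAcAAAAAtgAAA
psbA: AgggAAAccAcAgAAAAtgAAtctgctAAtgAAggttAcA
rbcL: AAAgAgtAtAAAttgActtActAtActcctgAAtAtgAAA
The windows of ycf1, rps19 and rps3 hold 31, 24 and 23 A, and those of psbA and rbcL hold 18 each. The windows of atpE, ndhK and psbD, with 19, 20 and 18 A, are close to those of psbA and rbcL, and that of atpF holds 24. The windows thus do not separate members with and without the excess. All but psbD and rbcL lie on the minus strand of the plastid genome.

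The member with the most fragments in Col-0 replicate 2 was ycf1 (ATCG01130), which encodes a protein of the inner envelope membrane. It had 34 fragments in Col-0 replicate 1, 47451 in Col-0 replicate 2, 25 in lux-6 replicate 1 and 18 in lux-6 replicate 2, or 0.576, 790, 0.425 and 0.313 FPKM. The rps3 gene (ATCG00800), a protein of the small ribosomal subunit, measured 5.80, 2183, 6.24 and 6.24 FPKM in the same order, so that its 3 low libraries lay close together. The rps19 gene (ATCG00820), also of the small subunit, measured 1.63, 1237, 0.327 and 3.01 FPKM, where the low values rest on 5, 1 and 9 fragments. The beta subunit of ATP synthase, atpB (ATCG00480), measured 6.0, 1236, 6.27 and 6.35 FPKM. The adjoining atpE measured 6.82, 2566, 4.80 and 4.90 FPKM.

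The best known plastid genes were not among these. The Rubisco large subunit gene rbcL (ATCG00490) stood at 4.85 FPKM in Col-0 replicate 1, 8.25 in Col-0 replicate 2, 19.3 in lux-6 replicate 1 and 4.33 in lux-6 replicate 2. The psbA values were 13.8, 19.9, 73.7 and 12.7 FPKM, so both genes were highest in lux-6 replicate 1 and not in Col-0 replicate 2. The psbA gene ranked 7th among plastid members in Col-0 replicate 1 and 48th in Col-0 replicate 2. Of the bases of psbA, 47.6% are found at 95% identity or more in the mitochondrial genome and 46.9% in the nuclear genome, and of those of rbcL 39.8% and 44.7%, so fragments from these copies could not be separated from plastid ones here.

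Col-0 replicate 2 was the highest library for 70 of the 83 members, against 29.1% of all 19592 genes that averaged 1 FPKM or more, here called tested genes. It exceeded the highest of the other libraries at least 10-fold, on FPKM + 1, for 37 of the 83 members, against 0.25% of all tested genes. Of the 64 members that reached 1 FPKM without this library, which the filter could not have picked for the excess, it was highest for 51 and at least 10-fold over for 26. At least 100-fold it exceeded them for 15 genes of the whole table (0.0766%), and all 15 were plastid members. Of these 15, ndhC, rps15, ycf1 and the unnamed ATCG01230 had reached 1 FPKM only through this library, so the filter had picked them for the excess. Photosystem I here includes its assembly factor ycf4, and cytochrome b6f the cytochrome maturation gene ccsA. In the class medians of this library against the median of the other 3, on log2(FPKM + 1), small ribosomal subunit genes lay 6.51 higher, large ribosomal subunit genes 5.33, NDH genes 4.67, photosystem II genes 3.24, cytochrome b6f genes 2.45, ATP synthase genes 2.42, RNA polymerase genes 2.35 and photosystem I genes 1.44. Transfer RNA rows lay the other way, at a median of -2.31. Of the 9 NDH genes 7, and of the 10 small ribosomal subunit genes 3, had reached 1 FPKM only through this library. Over the genes that reached it in the other 3 libraries, the medians were 6.55 for 7 small ribosomal subunit genes, 5.33 for 7 large ribosomal subunit genes, 7.87 for 2 NDH genes, 3.16 for 14 photosystem II genes, 3.04 for 6 cytochrome b6f genes, 2.42 for 6 ATP synthase genes, 2.63 for 3 RNA polymerase genes and 1.29 for 5 photosystem I genes. Within ATP synthase the 6 genes ranged from 0.39 for atpF (ATCG00130) to 8.76 for atpE. Within photosystem II the 15 genes ranged from 0.50 for psbA to 7.34 for psbD (ATCG00270), the D2 protein of the reaction centre.

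The members with at least 10-fold excess lay in runs of neighbours. In the order of the plastid genome, passing over rows that were not tested or have no protein name and ending a run at the inverted repeat, the 35 of them with a protein name formed 8 runs, of which the 4 with at least 5 members held 26 genes and 93% of all plastid fragments of Col-0 replicate 2. The largest ran from rpoA (ATCG00740), the alpha subunit of the plastid polymerase, through ribosomal protein genes that include rpl36, rpl14, rpl16, rps3, rpl22 up to rps19, with 9 genes and 30.6% of the plastid fragments. Beyond the 19 rows of the inverted repeat that follow, of which 16 were at 0, ndhF and rpl32 held another 2.02%. The next held ndhG, ndhI, ndhA, ndhH, rps15 and ycf1, with 30.0%. All of these reached 1 FPKM only through Col-0 replicate 2, so the filter had picked them for the excess. Their highest value in any other library was 1.09 FPKM. A run of rps4, ndhJ, ndhK, ndhC, atpE and atpB held 26.4%, and one of psbM, psbD, psbC, psbZ and rps14 held 6.06%. The coding sequences of psbD and psbC share 53 bases, those of rps3 and rpl22 16 bases and those of atpE and atpB 4 bases, so values in these pairs are uncertain as far as the counting could split them.

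**Figure D2:**
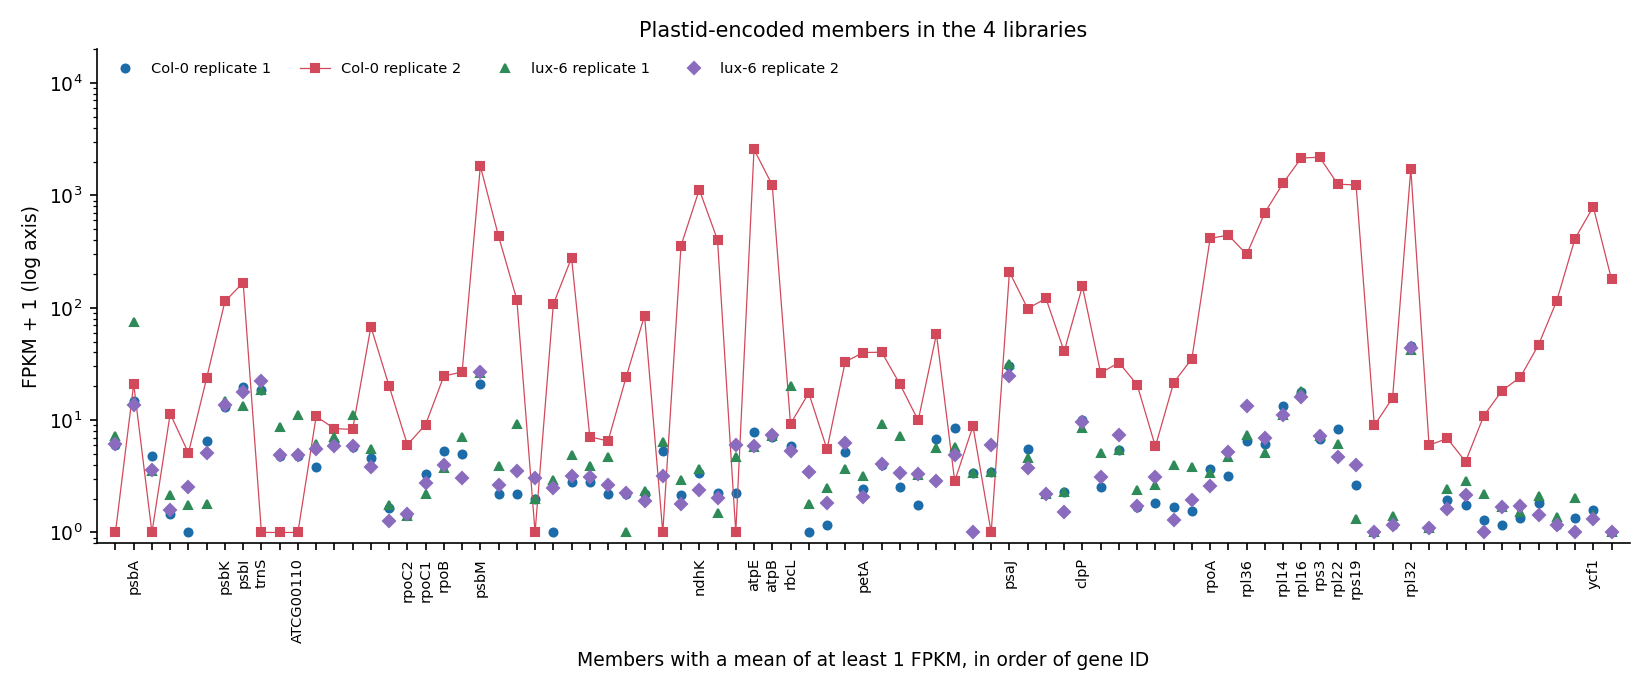
FPKM + 1 on a log axis for the 83 tested members in the order of their gene IDs, with 1 symbol per library and a line through Col-0 replicate 2; members named by the rule for named genes are labelled. The line peaks in groups of neighbouring genes, with atpE at 2566 FPKM, and falls to its lowest at transfer RNA rows and some unnamed rows, while rpl32 at 45.1 FPKM is among the highest points of Col-0 replicate 1.

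Most genes of these runs share a strand. Of the 35 protein genes with at least 10-fold excess, 28 lie on the minus strand, against 17 of the 33 other tested protein genes, and of the 14 with at least 100-fold excess, 13 do. The 10-fold set had a median of 32.4% A in its coding sequences (range 21.2% to 40.5%) and the other 33 a median of 27.0% (20.7% to 36.0%). Over the 68 genes the excess of Col-0 replicate 2 had a Spearman rho of 0.451 and a Pearson's r of 0.469 with the percentage of A, and of -0.372 and -0.365 with that of T. With the difference between lux-6 replicate 1 and lux-6 replicate 2 the percentage of A had a rho of -0.393 and an r of -0.404 over the same genes. For A and T together the rho with the excess was 0.128 and for gene length 0.0688. The 68 points share 4 libraries and neighbours share transcripts, so these are descriptions without a test. Some of the 68, among them rps15, ycf1 and the rest of their run, reached 1 FPKM only through Col-0 replicate 2. The filter had picked these for the excess. Strand counts, percentages of A and correlations were not repeated without them. There were exceptions in both directions: psbD had 22.0% A and measured 1.2, 432, 2.92 and 1.67 FPKM, while atpF had 36.0% A and measured 5.40, 7.40, 6.08 and 4.87 FPKM.

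**Figure D3:**
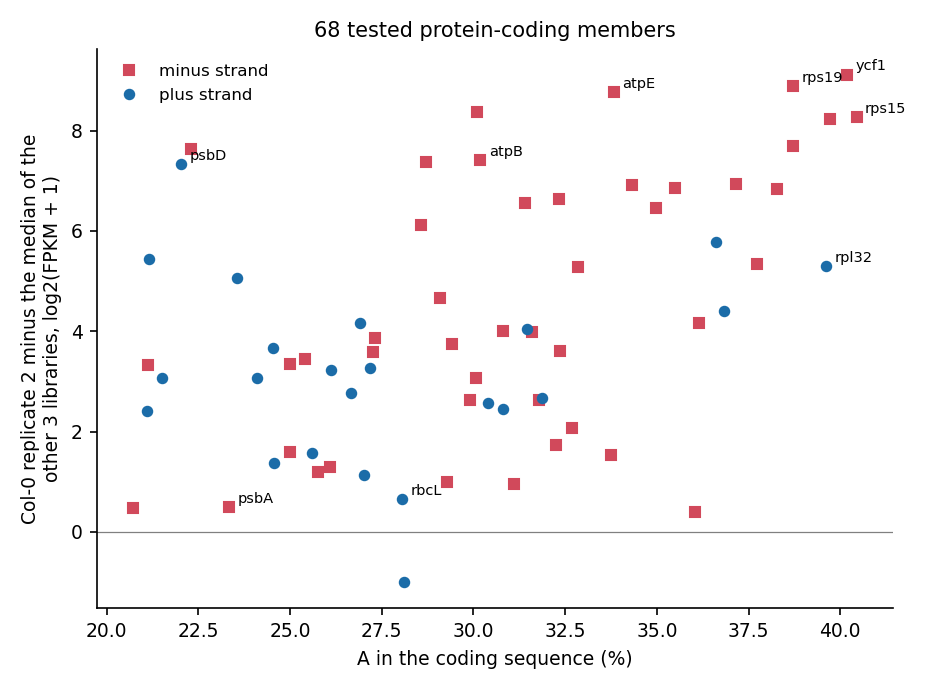
Each point is 1 of the 68 tested protein-coding members, with the percentage of A in its coding sequence on the x axis and the difference between Col-0 replicate 2 and the median of the other 3 libraries, in log2(FPKM + 1), on the y axis. The points scatter widely (rho = 0.451), with ycf1 at the top right, psbA and rbcL near 0 and psbD high at the left. Some points, ycf1 among them, reached 1 FPKM only through Col-0 replicate 2.

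Transfer RNA rows behaved unlike the protein genes. The 10 rows classed as transfer RNA held 32 fragments in Col-0 replicate 1, 0 in Col-0 replicate 2, 38 in lux-6 replicate 1 and 36 in lux-6 replicate 2. The highest of them, a trnS gene (ATCG00090) for serine transfer RNA, measured 17.5, 0, 17.6 and 21.2 FPKM. A count of 0 in Col-0 replicate 2 allows a share of up to 2.68e-05% of its fragments for any such row. Some other RNAs, not all of them short, were low in this library too. Nuclear small nucleolar RNA rows took 0.0588% of the FPKM in Col-0 replicate 1, 0.0431% in lux-6 replicate 1 and 0.0505% in lux-6 replicate 2. They were at 0 in Col-0 replicate 2, as were nuclear small nuclear RNA and ribosomal RNA rows. The small nuclear RNA rows took at most 0.000769% in any library, so their 0 says little. Nuclear long noncoding RNA rows, given below, were also low in Col-0 replicate 2. Nuclear rows of at most 92 annotated bases held 320, 24, 236 and 274 fragments. Whether the length of the fragments kept in each library bears on this was not tested.

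Ribosomal RNA rows of the plastid were almost empty. The row named as 16S ribosomal RNA (ATCG00920) had at most 0.367 FPKM, in lux-6 replicate 1, and that named as 23S ribosomal RNA (ATCG00950) had 0.0649 FPKM there and 0 in the other libraries. Both lie in the inverted repeat, the duplicated part of the plastid genome, and have a second copy there. Rows that lie in this duplicated part by their order, 19 between rps19 and ndhF and 18 after ycf1, were at 0 in all libraries in 16 and 15 cases, against 9 of the 96 other rows. Values at 0 there do not show that these genes were not transcribed, since no source used here says how fragments matching more than 1 place were counted.

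Mitochondrial rows, the other organelle's genes, took 0.0166%, 0.0276%, 0.0314% and 0.0212% of the FPKM in Col-0 replicate 1, Col-0 replicate 2, lux-6 replicate 1 and lux-6 replicate 2. Col-0 replicate 2 was thus not the highest library for them. Nuclear long noncoding RNA rows took 0.0661%, 0.00129%, 0.0620% and 0.0657%, the lowest by far in Col-0 replicate 2. Among genes outside the plastid, 12 exceeded the other libraries at least 10-fold in Col-0 replicate 2.

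The second departure was in lux-6 replicate 1 and lay mostly with psbA and rbcL. The summed FPKM of genes of the photosynthetic complexes was higher there than in lux-6 replicate 2 and Col-0 replicate 1. The photosystem, cytochrome b6f and Rubisco genes summed to 253 FPKM in lux-6 replicate 1, 139 in lux-6 replicate 2 and 141 in Col-0 replicate 1, against sums for ribosomal protein genes of 108, 113 and 113 FPKM. Much of this lay with psbA: without it the photosynthesis sums were 179, 126 and 127 FPKM, a ratio of 1.42 between the lux-6 libraries in place of 1.82, and without psbA and rbcL 160, 122 and 122 FPKM, a ratio of 1.31. Both psbA and rbcL have copies in other genomes, as given above, and so do some other members. Between the lux-6 libraries the ratio was 1.34 over all plastid rows, psbA and rbcL included. It was 1.75 for NDH genes and 1.295 for ATP synthase genes. Without psbA and rbcL the photosynthesis sums thus did not stand out from the plastid rows as a whole. The psbA gene had 858 fragments in lux-6 replicate 1 and 145 in lux-6 replicate 2, a ratio per library total of 5.79 (exact binomial 95% interval 4.85 to 6.95), and rbcL had 305 and 67, a ratio of 4.46 (3.41 to 5.89). Fragments of psbC (ATCG00280), an inner antenna protein of photosystem II, gave a ratio of 3.24 (2.25 to 4.76). Such intervals compare 2 libraries, not genotypes, and cover counting error alone. Other RNAs were also highest in lux-6 replicate 1. Nuclear ribosomal RNA rows took 0.0238% of its FPKM, against 0.00502% in Col-0 replicate 1, 0 in Col-0 replicate 2 and 0.00688% in lux-6 replicate 2, and the mitochondrial share was highest there too, at 0.0314%. Their part in the result was not tested.

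Of the 83 members, 9 lay above lux-6 replicate 2 in lux-6 replicate 1 beyond that interval (10.8%) and 2 below (2.41%), against 12.4% and 18% of all tested genes, so neither share exceeded the background and nothing is read from which genes they were. Precision differed: over the 3 libraries of low plastid share, members had a median of 8 fragments and tested genes one of 247. The 9 were psbA, psbB, psbC, psaA, petB, petD, atpH, rbcL and ATCG01050, which has no name here. The 2 were cemA and rps19. At least 2-fold over both lux-6 replicate 2 and Col-0 replicate 1, on FPKM + 1, were 7 of the 83 members, against 0.276% of all tested genes. They were psbA, psbC, psbJ, psbL, petB, rbcL and ATCG00110. In lux-6 replicate 1, psbA had 858 fragments, but psbL and ATCG00110 had 8 each. A 2-fold difference is reached more easily with so few fragments, so this contrast is not read as a result.

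**Figure D4:**
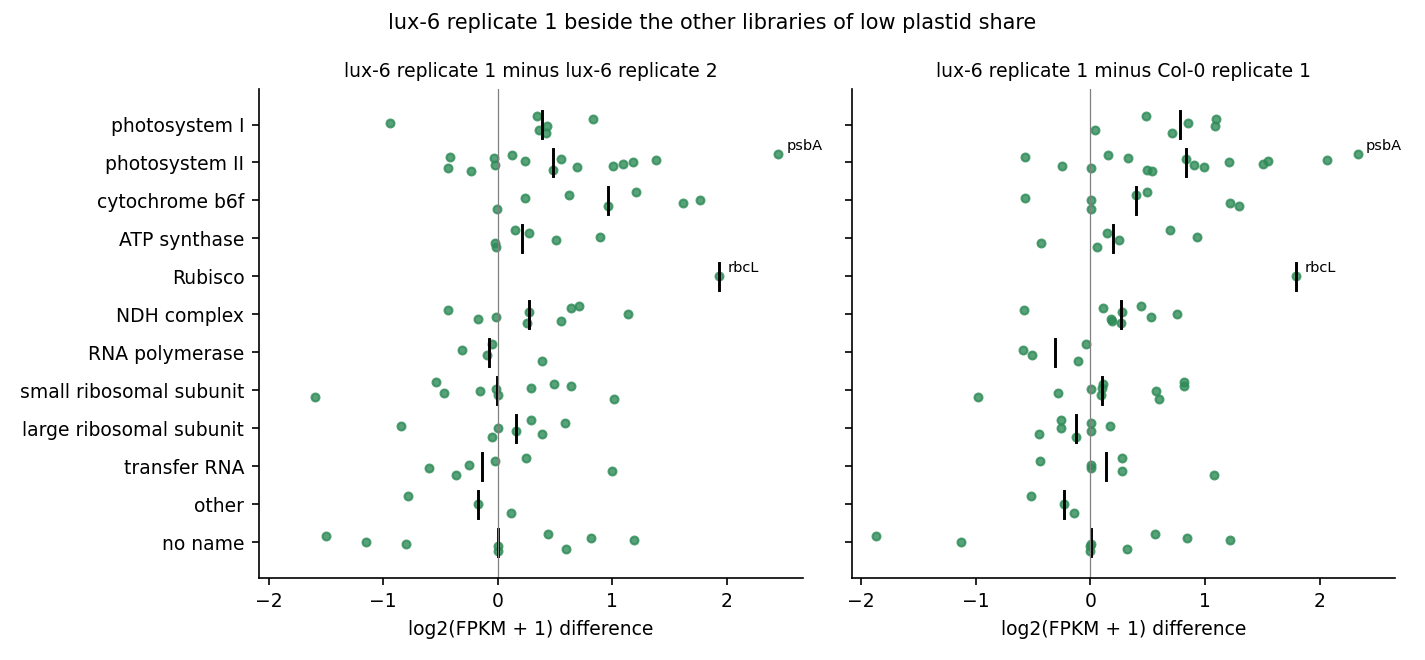
The difference in log2(FPKM + 1) between lux-6 replicate 1 and lux-6 replicate 2 (left) or Col-0 replicate 1 (right) for each tested member, by class, with the class median as a black bar. psbA and rbcL lie furthest to the right in the left panel and psbA and psbC in the right one, and both ribosomal classes are centred near 0.

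Upstream windows of plastid protein genes held the 250 bases before the start codon. They were searched for the boxes that the bacterial-type polymerase reads, TTGACA and TANNNT with 15 to 19 bases between. TTGACA was found on the coding strand in 8 of 77 windows (10.4%) and on the other strand in 3 (3.9%), and with TANNNT behind it in 2 (2.6%). One of these belongs to psbA, 85 bases before its start codon in RefSeq TAIR10.1, minus strand, with both boxes in capitals.
psbA boxes: TTGACAtggctatataagtcatgtTATACT
With up to 1 mismatch in TTGACA the pair was found in 13 windows (16.9%). The windows of rbcL, rps3 and atpB had neither. A match is a description of these letters, and no match says nothing of the polymerase.

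The comparison of the genotypes asks whether loss of LUX changes plastid transcripts at zeitgeber time 12. No plastid member passed the test. In limma on log2(FPKM + 1) with Benjamini-Hochberg adjustment over 19592 genes, 56 genes were higher (0.286%) and 1 lower (0.0051%) in lux-6, and of the 83 plastid members 0 were higher and 0 lower. At an unadjusted p under 0.05, 1 member was higher and 1 lower (2.41% of the members, against 12.3% of all tested genes in both directions), and limma-voom on fragments also called 0 of 83 higher (0.414% of all genes) and 0 lower (0.0102%). With a replicate block 0 members were higher (1.69%) and 1 lower (0.0408%), the unnamed ATCG00065, which had 5.57 and 22.7 FPKM for Col-0 against 0.800 and 4.09 FPKM for lux-6. The median log2 fold change over the members was -1.55, with 13 above 0 and 70 below (-1.48 over the 64 members above), beside a median of 0.05 and 55% above 0 over all tested genes. Without Col-0 replicate 2 the median was 0.09, with 49 above 0 and 32 below, beside a median of -0.04 and 44.0% above 0 over all tested genes, and again 0 members passed, where 680 genes were higher (3.47%) and 70 lower (0.357%). Without Col-0 replicate 1, which leaves Col-0 replicate 2 as the only wild type, the median was -3.25, beside 0.14 over all tested genes. For 19 of the members the filter had picked high values in that very library, so this median is partly built in. In such fits the lone library is assumed to vary like the other genotype.

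By class, the 6 photosystem I genes had a median log2 fold change of -0.30 with all libraries and 0.59 without Col-0 replicate 2, and the 15 photosystem II genes -1.46 and 0.62. The 10 small and 7 large ribosomal subunit genes had -2.90 and -2.71 with all libraries and 0.05 and -0.26 without. NDH genes had -2.42 and 0.13, and cytochrome b6f genes -1.42 and 0.00. The ATP synthase genes had -1.07 and 0.04, and the 6 tested transfer RNA rows 1.21 and 0.14. The 4 RNA polymerase genes had -1.37 and -0.37, below 0 in both. The medians of the photosystem, small ribosomal subunit, NDH and ATP synthase genes were below 0 in the first fit and above 0 in the second. Of the 9 NDH genes 7, and of the 10 small ribosomal subunit genes 3, had reached 1 FPKM only through Col-0 replicate 2. The same held for 1 gene each of photosystem I, photosystem II, cytochrome b6f and RNA polymerase. The filter had picked these for the excess, so medians below 0 in the first fit are partly built in. These medians were not repeated without them.

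**Figure D5:**
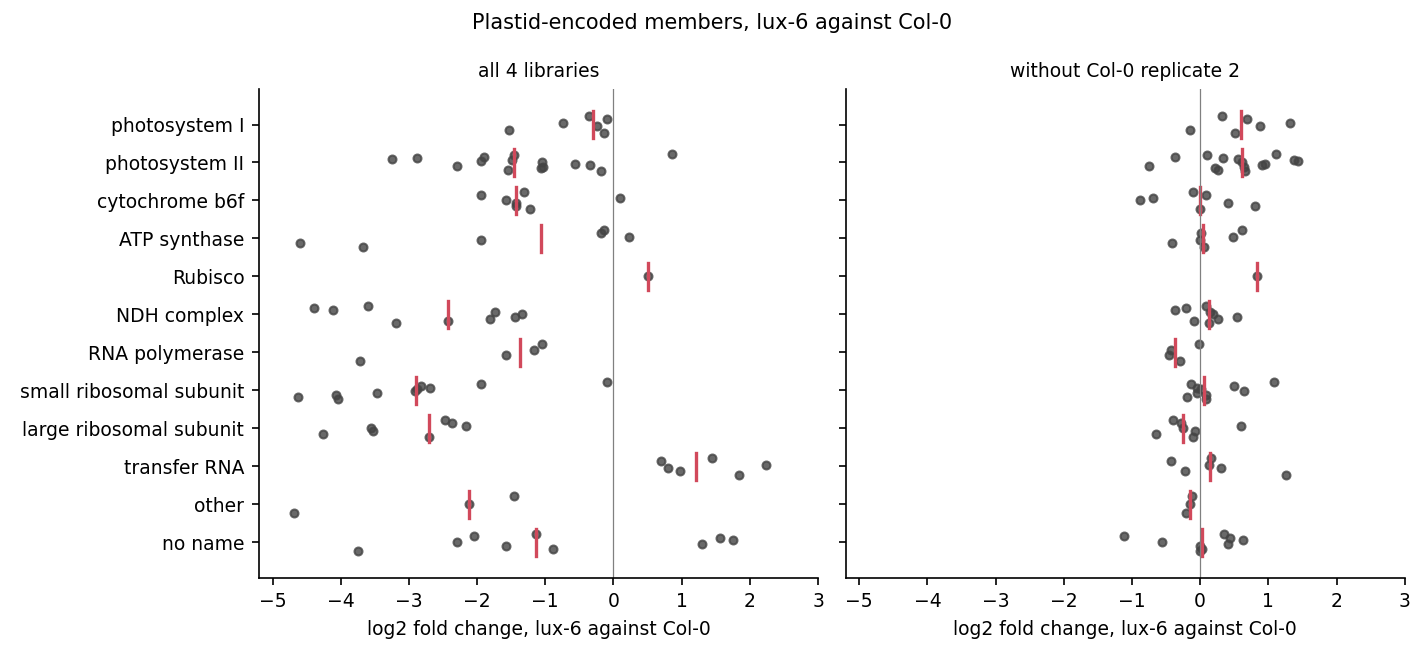
The log2 fold change of lux-6 against Col-0 for each of the 83 tested members by class, from all 4 libraries (left) and without Col-0 replicate 2 (right), with the class median as a red bar. The wide spread to the left, down to -4.69 for ycf1, is gone in the right panel, where most members lie between -1 and 1.

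Single members show what these fold changes rest on. For ycf1 the log2 fold change was -4.69 ± 2.88 (SE, adjusted p = 0.542 in limma) with all libraries and -0.20 without Col-0 replicate 2. For psbA it was 0.86 ± 0.81 (adjusted p = 0.664) and 1.11, but -0.36 without lux-6 replicate 1. For rbcL it was 0.50 ± 0.68 (adjusted p = 0.757) and 0.83, but -0.46 without lux-6 replicate 1. The genotypes overlapped in each of these but ycf1. The rpoB gene (ATCG00190), the beta subunit of the plastid polymerase, was lower in both lux-6 libraries, 4.29 and 23.7 FPKM for Col-0 against 2.72 and 2.98 FPKM, and did not pass (adjusted p = 0.473). The same held for rpoC1 (ATCG00180) with 2.31 and 8.13 against 1.21 and 1.73 FPKM (adjusted p = 0.463), while rpoC2 (ATCG00170) overlapped, with 0.439 and 5.04 against 0.397 and 0.451 FPKM. The protease subunit gene clpP (ATCG00670) had 9.06 and 154 FPKM against 7.56 and 8.67 FPKM (adjusted p = 0.538). The accD gene (ATCG00500), a subunit of acetyl-CoA carboxylase, had a mean under 1 FPKM and no fold change. The lux-6 pair exceeded the Col-0 pair without overlap for 7 of the 83 members (26.1% of all genes) and fell short of it for 14 (22.8%), so neither count exceeded the background. The 7 comprised 4 transfer RNA rows and 3 rows without a name, all at 0 in Col-0 replicate 2.

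The nuclear genes that transcribe, cut and stabilise plastid RNA were taken as a list of 31, all of which were tested. In limma, 0 passed the adjusted threshold, 4 had a log2 fold change above 0 and 27 below, and the median was -0.36 with all libraries and -0.28 without Col-0 replicate 2. At an unadjusted p under 0.05 there were 6 of the 31, against 12.3% of all tested genes. Over all tested genes 55% had a log2 fold change above 0. Col-0 replicate 2 was the highest library for 20 of the 31, against 29.1% of all tested genes. The phage-type polymerase gene RPOTp (AT2G24120) had 28.3 and 23.9 FPKM against 23.7 and 22.0 FPKM, Col-0 first (adjusted p = 0.667). Sigma factors guide the bacterial-type polymerase to promoters. SIG2 (AT1G08540) had the lowest p of them, with 58.7 and 80.6 against 45.7 and 44.9 FPKM (log2 fold change -0.59, adjusted p = 0.373). SIG4 (AT5G13730) had 67.7 and 74.4 against 59.3 and 52.0 FPKM, and SIG6 (AT2G36990) had 60.7 and 76.9 against 57.8 and 48.9 FPKM, both lower in lux-6 without overlap. SIG1 (AT1G64860) with 37.1 and 24.4 against 47.4 and 36.1 FPKM, SIG3 (AT3G53920) with 43.7 and 36.0 against 36.9 and 40.3 FPKM and SIG5 (AT5G24120) with 7.72 and 7.74 against 9.15 and 6.65 FPKM overlapped between the genotypes. The lowest adjusted p of the list was 0.156, for the polymerase-associated PTAC12 (AT2G34640), at 68.3 and 86.0 against 39.6 and 39.8 FPKM.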

How the data were processed

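RNA of whole seedlings was measured in 2 Col-0 and 2 lux-6 libraries, grouped by title. The authors deposited FPKM, named so in the file headers, in a file for each library. TopHat2 2.0.12 and TAIR10 appear in the submitters' processing notes; no source used here gives the counter, gene lengths, strand setting or filters. FPKM was turned back into whole fragments by a search over gene lengths and library totals (tolerance 0.002, plastid rows 2e-05). This gave whole fragments for 83.5% of 24323 IDs above 0 with an annotated length.

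Genes averaging 1 FPKM or more (19592) were tested for genotype on log2(FPKM + 1) in limma 3.58.1 (R 4.3.3) with a trended prior variance. Tests were two-sided, adjusted by Benjamini-Hochberg over all of these genes at a threshold of 0.05, with 2 residual degrees of freedom. A fold change on this scale understates the change of low genes. The model was tested on simulated data. Copies were searched with blastn 2.17.0 at 95% identity. IDs of the nuclear list were checked against RefSeq, whose main symbol differs for several of them, such as SCA3 for RPOTp and SIGA for SIG1. The names RPOTmp and RNJ are not used there for the IDs taken here.

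Members and lists were chosen with earlier results of these data known. Named by rule are members among the 10 highest in any library, the highest of each class and a list of well known genes, 28 in all, of which 25 were tested; matK and ycf2 were not matched to a row. Further genes, such as neighbours in the runs, were chosen after their values were seen. Alternatives were 2 other scalings, a pseudocount of 0.1, no filter, limma-voom on fragments, a replicate block, each library left out and other definitions of the plastid share. Values of some members are not reported here.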

Additional observations from a re-analysis of the deposited data

How the results depend on the processing

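Over all genes the calls (56 higher, 1 lower) became 95 higher under median-of-ratios scaling, 0 and 0 with a pseudocount of 0.1 or with no filter on low values, and 2 lower under limma-voom. Leaving out each library in turn gave from 0 to 4244 higher and from 0 to 2374 lower. Replicate numbers are shared between the genotypes, but the labels do not say that a number marks a common batch, and replicate 1 minus 2 correlated at r = -0.0255 between the genotypes over 19592 genes. With the replicate block 332 genes were higher and 8 lower, and of the plastid members 0 were higher and 1 lower.

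For the plastid members the calls of 0 higher and 0 lower held under both scalings, the pseudocount of 0.1, no filter and limma-voom. With libraries left out in turn they ran from 0 to 10 higher and from 0 to 67 lower, with calls only where Col-0 replicate 1 was the one left out. The median log2 fold change of -1.55 ranged from -3.25 to 0.0886, that of photosystem II from -3.01 to 0.62, of ATP synthase from -2.39 to 0.0365 and of the rows without a name from -2.62 to 0.0207. With a pseudocount of 0.1 the transfer RNA median was 2.72. Leaving out Col-0 replicate 2 gave the highest value, and a reversed sign, for psbK (range -3.01 to 0.0963), psbM (-6.11 to 0.341), atpB (-7.40 to 0.0621), petA (-3.96 to 0.0855), rpl36 (-4.92 to 0.591) and rps3 (-8.24 to 0.0904). Leaving out lux-6 replicate 1 gave the lowest value, with a reversed sign, for psbA (range -0.36 to 2.08) and rbcL (-0.46 to 1.47). In the fit that lacks Col-0 replicate 1, the only wild type was Col-0 replicate 2, whose 10 highest members are among the named ones. Nothing is read from the calls on named members there. The lux-6 mean share was 0.0207% in fragments and 0.0614% in FPKM. The Col-0 mean share was 0.0525% or 3.09% when 1 of its libraries was left out. The search for promoter boxes found TTGACA in 8 windows and the pair with up to 1 mismatch in 13. The low libraries hold 1585 to 2922 plastid fragments over all rows, so differences between single low members were often not detectable at this depth.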
